A study of Mus musculus with 120 samples.

Results

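The genes described here encode 10 heat shock chaperones of the cytosol and the mitochondria, namely Hspa1a, Hspa1b, Hspa8, Hsph1, Dnajb1, Hsp90aa1, Hsp90ab1, Hspb1, Hspd1 and Hspe1. They were picked by symbol from 49466 genes, and all 10 had a value in each of the 120 libraries. Polyadenylated RNA of C57BL/6J mouse cortex, thalamus and hypothalamus was sequenced in 30 groups of 4 biological replicates, in a study of how sleep amount is controlled by transcription. Adeno-associated virus was injected retro-orbitally into every mouse, and tissue was taken 3 weeks later. Mice lived in 12 h of light and 12 h of dark and were sampled at ZT12.5 or ZT0.5, where ZT counts hours from lights-on, so ZT12.5 is early night and ZT0.5 early day.

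Sleepy mice are heterozygous for a Sik3 allele with a deleted exon, written Sik3E13delta/+ in the labels. Sik3 encodes a kinase of the salt-inducible kinase family. In each region, Sleepy mice received HDAC4CA at ZT12.5 and ZT0.5, CREB at ZT12.5, or eGFP at both times. Wild-type mice received HDAC4CA or CREB at ZT12.5, with mCherry at ZT12.5 as their control, or eGFP at both times. HDAC4CA is a form of the histone deacetylase HDAC4, and CREB is a transcription factor that binds cAMP response elements. The promoter and cell type that drive the transgenes and the age and sex of the mice are not stated in the labels. The control vector differed between the genotypes, and the Sleepy eGFP group at ZT12.5 served as the reference for HDAC4CA and CREB and entered the genotype and time comparisons. The 36 libraries of wild-type HDAC4CA, CREB and mCherry mice are in RPKM and the other 84 in FPKM, both reads per length and depth, and no level was set across the units.

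Heat shock chaperones bind unfolded or newly made proteins and help them fold, keep them soluble or pass them on for degradation. Hsp70 proteins work in cycles of ATP hydrolysis that J-domain proteins start and Hsp110 proteins reset, and they hand clients to Hsp90. The mitochondrial Hsp60 and Hsp10 form a folding chamber of their own. Heat, oxidative stress and other protein-damaging conditions induce many of these genes through heat shock factors, and in brain the constitutive members are abundant in neurons.

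Among the Hsp70 genes, Hspa1a (chr17:34969190-34972156, minus strand, GRCm38) and Hspa1b (chr17:34956436-34959238, minus strand) are stress-inducible near-identical copies. Reads that match both could have been split or dropped by the authors' counting, so the division between them is uncertain. Hspa8 (chr9:40800984-40810087, plus strand) encodes the constitutive Hsc70. Hsph1 (chr5:149614287-149636376, minus strand) encodes an Hsp110, a nucleotide exchange factor of Hsp70, and Dnajb1 (chr8:83608193-83612653, plus strand) encodes the J-domain protein Hsp40. Hsp90aa1 (chr12:110690605-110702728, minus strand) and Hsp90ab1 (chr17:45567775-45573271, minus strand) encode the inducible and the constitutive cytosolic Hsp90. Hspb1 (chr5:135887919-135889563, plus strand) encodes a small heat shock protein. Hspd1 (chr1:55077835-55088243, minus strand) encodes mitochondrial Hsp60, and Hspe1 (chr1:55088132-55091307, plus strand) its partner Hsp10. The exons of Hspd1 and Hspe1 overlap on opposite strands, those of Hspa1a overlap Gm20481 on the other strand, and those of Hspa8 hold the small nucleolar RNA genes Snord14c, Snord14d and Snord14e. Whether the counting used strand is not stated in the labels, and reads in these overlaps cannot be told apart.

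Promoter sequences of 7 of the 10 genes were present in the RefSeq promoter table (GRCm38.p6), and Hspa8, Hsp90aa1 and Hsp90ab1 had no entry. Those of Hspa1a, Hspa1b, Dnajb1, Hsph1 and Hspe1 are shown as examples. The first 3 were called higher with CREB in Sleepy thalamus, and Hsph1 and Hspe1 lower at ZT12.5 in pooled thalamus. The 2 sets are not exclusive, since Hspa1a and Dnajb1 were also lower at ZT12.5 in pooled hypothalamus. Hspd1, lower at ZT12.5 in all regions, and Hspb1 had an entry and are not printed. Each line is the 250 bases before the RefSeq start, read 5′ to 3′ on the gene's strand. Capitals mark matches to 2 facing units of the heat shock element, GAANNTTC or TTCNNGAA, searched on both strands.
Hspa1a, chr17:34972157-34972406, minus strand: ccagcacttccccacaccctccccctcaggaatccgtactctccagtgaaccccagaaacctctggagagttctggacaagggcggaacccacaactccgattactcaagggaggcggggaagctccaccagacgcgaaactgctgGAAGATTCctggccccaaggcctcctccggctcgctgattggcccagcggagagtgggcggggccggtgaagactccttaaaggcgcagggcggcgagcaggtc
Hspa1b, chr17:34959239-34959488, minus strand: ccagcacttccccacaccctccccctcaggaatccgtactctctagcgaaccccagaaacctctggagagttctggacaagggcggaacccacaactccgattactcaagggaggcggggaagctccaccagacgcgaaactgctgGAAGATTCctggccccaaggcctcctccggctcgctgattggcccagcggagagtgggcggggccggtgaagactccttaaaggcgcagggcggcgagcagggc
Dnajb1, chr8:83607925-83608174, plus strand: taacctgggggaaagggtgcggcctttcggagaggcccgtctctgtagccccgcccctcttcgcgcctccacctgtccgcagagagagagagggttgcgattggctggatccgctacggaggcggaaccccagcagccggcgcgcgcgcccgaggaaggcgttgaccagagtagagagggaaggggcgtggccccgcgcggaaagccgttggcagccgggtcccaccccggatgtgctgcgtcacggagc
Hsph1, chr5:149636337-149636586, minus strand: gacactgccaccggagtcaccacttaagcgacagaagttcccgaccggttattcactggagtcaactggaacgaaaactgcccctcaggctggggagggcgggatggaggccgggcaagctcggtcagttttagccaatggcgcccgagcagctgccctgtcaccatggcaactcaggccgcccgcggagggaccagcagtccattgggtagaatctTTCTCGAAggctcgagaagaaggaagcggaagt
Hspe1, chr1:55087898-55088147, plus strand: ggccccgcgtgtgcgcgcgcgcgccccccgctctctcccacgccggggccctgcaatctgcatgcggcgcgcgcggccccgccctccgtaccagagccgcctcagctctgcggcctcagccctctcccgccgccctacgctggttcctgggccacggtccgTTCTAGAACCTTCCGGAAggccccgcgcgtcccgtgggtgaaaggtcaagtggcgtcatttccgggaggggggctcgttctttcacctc
The Hspa1a and Hspa1b stretches differ at 3 of 250 positions and share 1 match. Hsph1 has 1 match in the printed bases and 2 overlapping matches in the 50 bases after its start, which together form the longer element of 3 alternating units. Hspb1, not printed, has 2 matches of the element of 2 units before its start. The capitals in Hspe1 are overlapping matches that also hold that longer element, alternating GAA and TTC with each pair spaced by NN. Dnajb1 and Hspd1 had no match to the element of 2 units in the bases searched. The Hspe1 matches lie within the Hspd1 gene, outside the bases searched for Hspd1. Among all 32851 promoter windows of 300 bases (250 before and 50 after the start), 15.1% held the element of 2 units and 0.603% that of 3 units. The full cAMP response element TGACGTCA was in none of the 7 windows, against 1.79% of all windows, and its shorter form TGACG or CGTCA was in Dnajb1, Hspb1 and Hspe1, against 20.8% of all. A match describes letters only, and whether any factor bound there was not measured.

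Recovered depth was 13.52 to 28.16 M reads per library, with a median of 18.7 M. Over the libraries, recovered reads ran from 6 to 117 for Hspb1, 14 to 178 for Hspa1b and 30 to 214 for Hspa1a, so these 3 are the least precise, and from 8197 to 24356 for Hsp90ab1. Summed region markers matched the labelled tissue, for example 181 to 332 for the thalamus list in thalamus against 9.02 to 19.6 in cortex. Hdac4 was 4.38 to 11.1 FPKM in libraries labelled HDAC4CA and 2.3 to 3.44 FPKM in the other FPKM libraries. Creb1 was 5.73 to 18.9 FPKM in libraries labelled CREB and 1.84 to 3.59 FPKM in the others. Sik3 checks nothing about the allele, since its sum over exons includes those that remain. The RPKM libraries are of 2 kinds that the labels do not name: replicates 1 to 3 of each cortex group have a high mean log2 level of ribosomal protein genes (3.56 to 3.77), whereas replicate 4 of each cortex group and all thalamus and hypothalamus libraries have a low one (1.55 to 1.98). Hspa8 moves with this, with 75.9, 89.6, 85 and 32.8 RPKM in replicates 1 to 4 of wild-type mCherry cortex. RPKM levels are therefore not compared between regions, and both wild-type cortex comparisons are given with and without replicate 4.

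Log2 differences below are transgene minus control vector, Sleepy minus wild type, ZT12.5 minus ZT0.5 or the first named region minus the other, on log2(value + 0.1) after rescaling each library by the trimmed mean of M values, so they need not equal the ratio of the deposited means. Calls rest on limma p-values, adjusted by the Benjamini-Hochberg method over all genes of the comparison, with 0.05 as the threshold. SE is the standard error of a log2 difference and SD the standard deviation of levels over replicates. Statements that groups overlap or are separate refer to the deposited values, before rescaling.

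The 10 genes span a wide range of levels per length. In thalamus of wild-type eGFP mice at ZT12.5, Hsp90ab1 was highest at 207 ± 5.74 FPKM (SD, n = 4), followed by Hspa8 at 137 ± 5.39 FPKM and Hsp90aa1 at 94.5 ± 3.55 FPKM. The mitochondrial Hspd1 was at 25 ± 0.716 FPKM, Hsph1 at 17.9 ± 0.611 FPKM, Hspe1 at 10.2 ± 0.76 FPKM and Dnajb1 at 7.12 ± 0.757 FPKM. Hspb1 at 3.85 ± 0.957 FPKM, Hspa1a at 1.7 ± 0.788 FPKM and Hspa1b at 1.49 ± 0.666 FPKM were lowest. Hspa1a and Hspa1b, neighbours in this order, overlapped library by library, and the other neighbours did not, apart from Hspb1, whose libraries (3.16 to 5.24 FPKM) lay above all of Hspa1a (1.16 to 2.87 FPKM) by little.

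The regions of wild-type eGFP brain were tested over both times with 8 libraries a region, and single chaperone genes differed. The labels do not say whether regions come from the same mice. These tests, and those below of an effect between regions, treated libraries of different regions as independent, so their SE and p-values rest on that. Each comparison of regions called 6 of 10 genes, higher and lower together, near the share of all genes called. By direction, cortex against thalamus was near the shares of all genes too. The uneven split between higher and lower in the other comparisons was not tested against all genes. Relative to thalamus, cortex had more Hspa1b and Hspa1a and less Hspb1, and hypothalamus had more of the mitochondrial pair, Hsph1 and both Hsp90 genes. Cortex against thalamus gave 3 genes higher (28.4% of all genes tested were) and 3 lower (31.3%). Hspa1b averaged 2.07 ± 0.374 FPKM in cortex and 1.2 ± 0.603 FPKM in thalamus (SD, n = 8 each), a log2 difference of 1.11 (SE 0.20, adjusted p = 9e-05). Hspb1 averaged 1.87 ± 0.257 FPKM in cortex and 4.03 ± 0.887 FPKM in thalamus, with no overlap in the deposited values. Its log2 difference after rescaling was -0.77 (SE 0.12, adjusted p = 3.5e-05). Hspa1a was higher by 0.52, and Hspd1 (-0.13) and Hspe1 (-0.17) were lower. Hsp90ab1 was called higher by 0.11 after rescaling and lower by -0.18 without it, since the deposited means were 193 ± 12.5 FPKM in cortex and 219 ± 20.8 FPKM in thalamus.

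Hypothalamus against thalamus gave 5 genes higher (29.1% of all genes) and 1 lower (28.6%). Hspe1 averaged 15.6 ± 0.985 FPKM in hypothalamus and 12.2 ± 2.25 FPKM in thalamus, a log2 difference of 0.24 (SE 0.06). Hsph1 (0.22), Hsp90aa1 (0.20), Hspd1 (0.18) and Hsp90ab1 (0.11) were higher as well, and Hspb1 was lower (-0.87, SE 0.17). Cortex against hypothalamus gave 1 gene higher (30.9% of all genes), Hspa1b by 1.05, and 5 lower (34.8%). Hspd1 averaged 21.7 ± 1.66 FPKM in cortex and 35.8 ± 3.07 FPKM in hypothalamus. The deposited values did not overlap, but they also carry the shift of all genes given below. After rescaling the log2 difference was -0.31 (SE 0.04). Hspe1 (-0.43), Hsph1 (-0.25), Hsp90aa1 (-0.24) and Hspa8 (-0.08) were also lower in cortex. Without rescaling the median of all genes moved to -0.29 for cortex minus thalamus, 0.13 for hypothalamus minus thalamus and -0.42 for cortex minus hypothalamus, so these differences are relative to the other genes of a region. In such tissue samples, fewer cells of a type and less RNA per cell cannot be told apart. Summed markers of choroid plexus and ependyma at ZT12.5 and ZT0.5 were 312 to 767 and 19 to 968 FPKM in thalamus. They were 1.53 to 40.5 and 1.95 to 27.1 FPKM in cortex and 12.3 to 13.8 and 12 to 15.6 FPKM in hypothalamus. Their part in the differences of Hspb1 and the other genes between regions was not tested.

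Time of day was tested within single groups and pooled over groups. The pooled tests hold more libraries than the vector comparisons, so counts of calls are not ranked between them. At ZT12.5 the constitutive Hsc70 gene Hspa8, Hsph1, Hsp90aa1 and the Hsp60 gene Hspd1 were lower than at ZT0.5 in all regions when the 3 groups sampled at both times (wild-type eGFP, Sleepy eGFP, Sleepy HDAC4CA) were pooled with the group as a stratum, 12 libraries against 12. Hspe1 fell in thalamus and hypothalamus, and Hspb1 and Hspa1b were not called in any region. None of the 10 was called higher in these pooled tests. Called lower were 4 of 10 genes in cortex (13.6% of all genes tested were), 6 of 10 in thalamus (24.2%) and 8 of 10 in hypothalamus (3.78%). The median log2 difference of the 10 was -0.15, -0.17 and -0.21 in cortex, thalamus and hypothalamus, against 0.00, 0.01 and 0.00 for all genes.

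**Figure D1:**
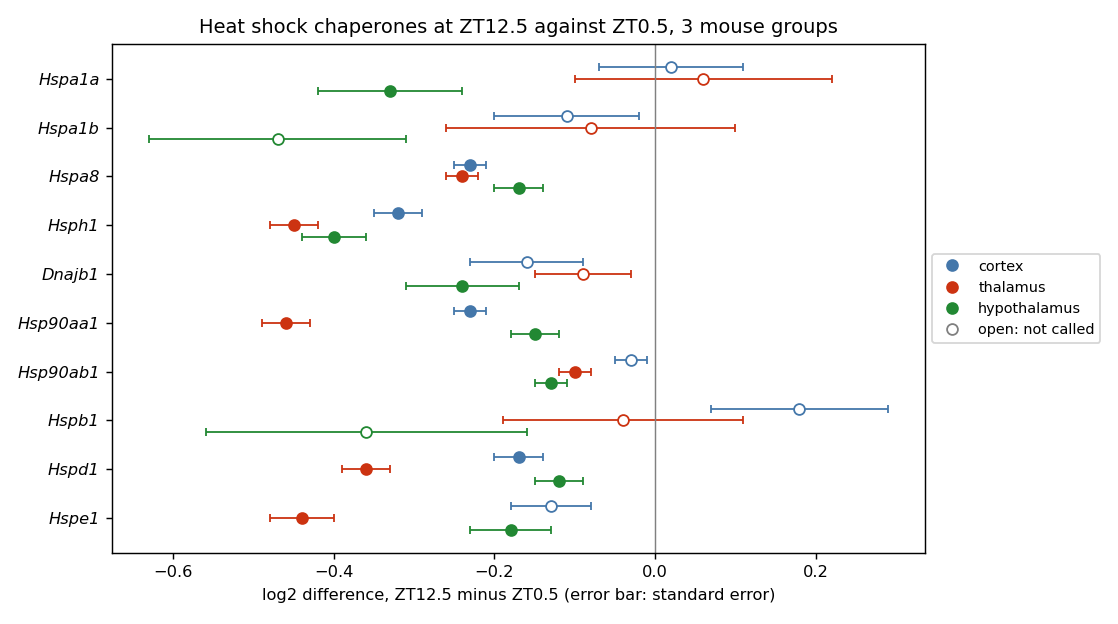
Log2 difference of ZT12.5 minus ZT0.5 for the 10 chaperone genes in cortex, thalamus and hypothalamus over the 3 groups sampled at both times, with bars for 1 SE. Hsph1, Hspa8, Hsp90aa1 and Hspd1 lie below 0 in all regions, and the thalamus values of Hsp90aa1 (-0.46), Hspd1 (-0.36) and Hspe1 (-0.44) lie lowest of the 3 regions.

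The thalamus of wild-type eGFP mice shows the size of it. Hsp90aa1 was 94.7, 94.8, 89.8 and 98.5 FPKM at ZT12.5, against 130, 129, 154 and 136 FPKM at ZT0.5. Hsph1 was 18, 17.8, 17.2 and 18.7 FPKM at ZT12.5, against 22.5, 23.6, 30.6 and 27.1 FPKM at ZT0.5. Every ZT12.5 library of both genes lay below every ZT0.5 library. The log2 differences were -0.45 for Hsp90aa1 (SE 0.04, adjusted p = 0.00019) and -0.44 for Hsph1 (SE 0.05, adjusted p = 0.00063). Hspa8 was 144, 136, 131 and 138 FPKM at ZT12.5, against 164, 159, 194 and 164 FPKM at ZT0.5. Its groups did not overlap either, with a log2 difference of -0.22 (SE 0.04, adjusted p = 0.0058). The mitochondrial pair moved with them. Hspd1 was 26.1, 24.6, 24.5 and 25 FPKM at ZT12.5, against 29.5, 30.8, 38.7 and 34.8 FPKM at ZT0.5. Hspe1 was 10.7, 10.8, 9.15 and 10.3 FPKM at ZT12.5, against 13.5, 13.3, 15.8 and 13.9 FPKM at ZT0.5. Both pairs of groups were separate, and the log2 differences were -0.33 for Hspd1 (SE 0.04, adjusted p = 0.00095) and -0.38 for Hspe1 (SE 0.06, adjusted p = 0.0019). In this group 5 of 10 genes were called lower (9.92% of all genes).

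The other groups, with separate libraries, gave the same 5 genes in Sleepy eGFP thalamus (9.94% of all genes called lower) and 8 of 10 in Sleepy HDAC4CA thalamus (13.1%). In Sleepy eGFP thalamus, Hsp90aa1 was 95.6, 97.2, 93.4 and 98.5 FPKM at ZT12.5, against 130, 123, 129 and 131 FPKM at ZT0.5, a log2 difference of -0.35 (SE 0.04, adjusted p = 0.00094). In Sleepy HDAC4CA thalamus it was 93.4, 104, 108 and 108 FPKM at ZT12.5, against 160, 160, 149 and 150 FPKM at ZT0.5, a difference of -0.58 (SE 0.04, adjusted p = 0.00023). The ZT12.5 libraries were the lower ones in both groups without overlap. The genes called in Sleepy HDAC4CA thalamus alone were Hspa1b (-0.57, SE 0.13), Dnajb1 (-0.31, SE 0.10) and Hsp90ab1 (-0.16, SE 0.05). Of these, Dnajb1 lost its call without any 1 of HDAC4CA replicates 1, 2 or 3 at ZT12.5 or 2 or 3 at ZT0.5 (-0.36 to -0.21, adjusted p up to 0.11). Hsp90ab1 lost it without any 1 of replicates 1, 2 or 4 at ZT12.5 or 2, 3 or 4 at ZT0.5 (-0.19 to -0.14, adjusted p up to 0.093). Over the 3 groups, Hsp90aa1 averaged 98 ± 5.8 FPKM at ZT12.5 and 140 ± 13.6 FPKM at ZT0.5 (SD, n = 12 each). Hspe1 averaged 10.1 ± 0.798 FPKM at ZT12.5 and 14.2 ± 1.1 FPKM at ZT0.5. These 2 genes, Hsph1 and Hspd1 were the ones whose 12 ZT12.5 libraries all lay below all 12 ZT0.5 libraries. How many of all genes were separated in this way was not counted.

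**Figure D2:**
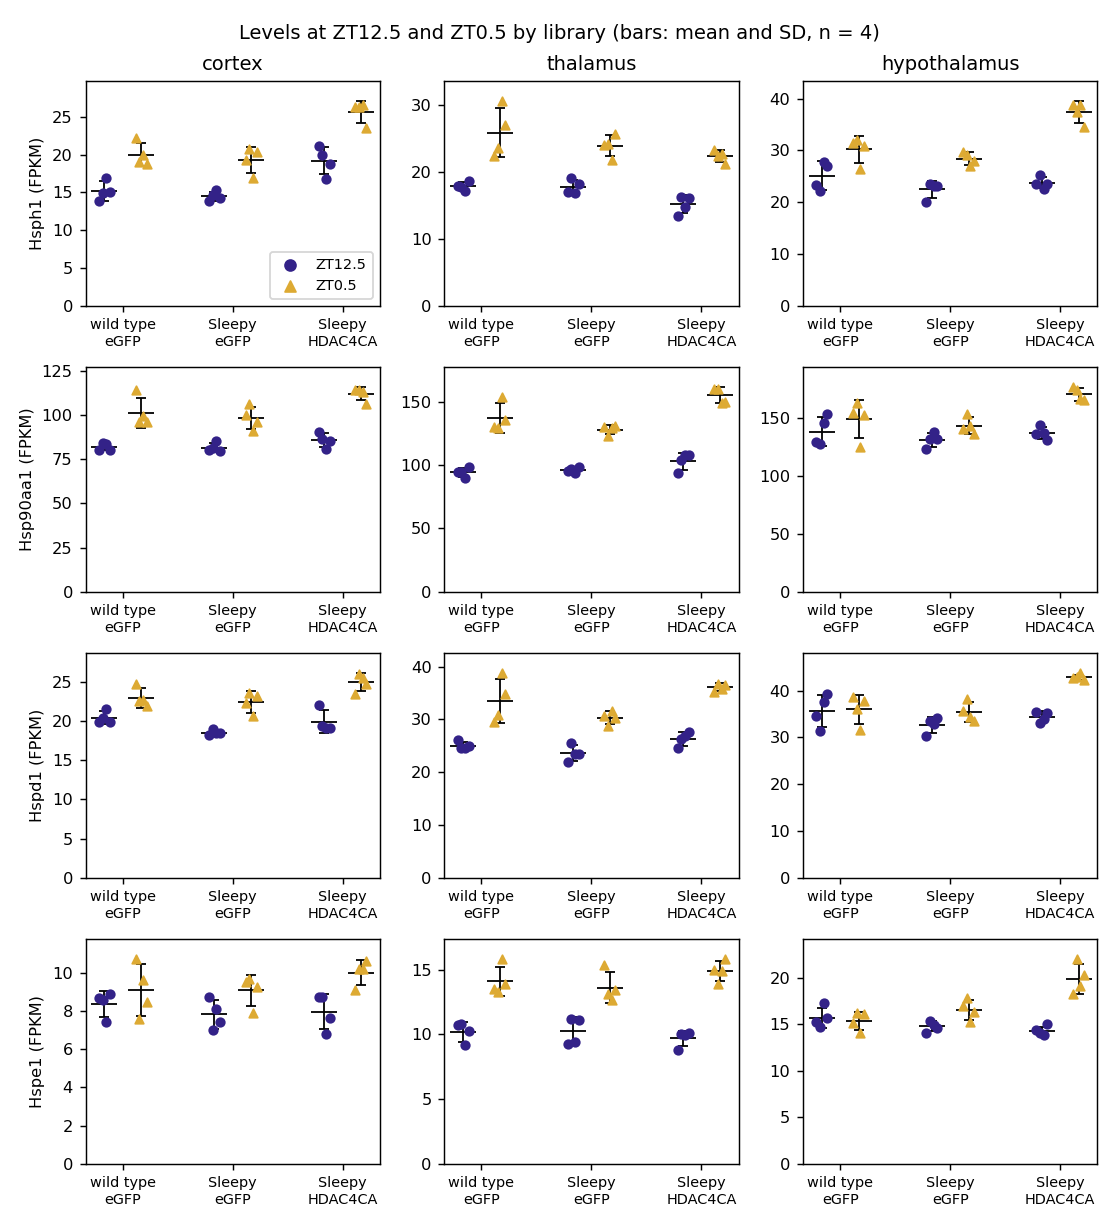
Level in FPKM of Hsph1, Hsp90aa1, Hspd1 and Hspe1 in each library at ZT12.5 (circles) and ZT0.5 (triangles), by region and mouse group, with bars for the mean and SD of 4 libraries. In thalamus the 12 ZT12.5 libraries of Hsp90aa1 sit between 89.8 and 108 FPKM and the 12 ZT0.5 libraries between 123 and 160 FPKM.

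In cortex the fall was smaller and was carried by Hsph1, Hspa8, Hsp90aa1 and Hspd1. Over the 3 groups, Hsph1 averaged 16.3 ± 2.45 FPKM at ZT12.5 and 21.7 ± 3.29 FPKM at ZT0.5, a log2 difference of -0.32 (SE 0.03, adjusted p = 6.9e-08). Hspa8 averaged 110 ± 7.96 FPKM at ZT12.5 and 137 ± 10.6 FPKM at ZT0.5, a difference of -0.23 (SE 0.02, adjusted p = 2.4e-08). Hsp90aa1 averaged 83.2 ± 3.35 FPKM at ZT12.5 and 104 ± 8.34 FPKM at ZT0.5, with no overlap and a difference of -0.23 (SE 0.02), and Hspd1 differed by -0.17 (SE 0.03). Taken by group, all 4 were called in Sleepy eGFP (1.96% of all genes called lower) and in Sleepy HDAC4CA mice (2.07%), and Hsph1 and Hsp90aa1 in wild-type eGFP mice (0.61%). The single-group cortex calls are fragile. In wild-type eGFP mice Hsph1 was kept in 1 of 8 fits that left out 1 library, the one without ZT12.5 replicate 3 (-0.35 to -0.27, adjusted p up to 0.1), and Hsp90aa1 in 0 of 8 (-0.21 to -0.18, adjusted p up to 0.11). In Sleepy eGFP mice Hsph1 and Hspa8 were kept in all 8 fits, Hsp90aa1 in 1, the one without ZT12.5 replicate 3 (-0.21 to -0.15, adjusted p up to 0.12), and Hspd1 in 0 (-0.19 to -0.16, adjusted p up to 0.076). In Sleepy HDAC4CA mice Hspd1 was kept without ZT0.5 replicate 1 or 3 alone (-0.28 to -0.22, adjusted p up to 0.083), and the other 3 genes in all 8 fits.

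In hypothalamus the pooled test called Hspa1a (-0.33, SE 0.09), Hsph1 (-0.40, SE 0.04), Dnajb1 (-0.24, SE 0.07), Hspa8 (-0.17, SE 0.03), Hsp90aa1 (-0.15, SE 0.03), Hsp90ab1 (-0.13, SE 0.02), Hspd1 (-0.12, SE 0.03) and Hspe1 (-0.18, SE 0.05). Single groups gave few calls there by limma. In Sleepy HDAC4CA mice limma called Hsph1 alone (0.11% of all genes were lower). At an unadjusted p under 0.05 in either direction were 7 of 10, against 2244 of all 17217 genes. Calls numbered 6 both by limma-voom on the recovered reads and by limma without rescaling. By voom these were Hsph1, Hspa8, Hsp90aa1, Hsp90ab1, Hspd1 and Hspe1. Hsph1 was 23.6, 25.3, 22.6 and 23.6 FPKM at ZT12.5, against 38.8, 37.5, 38.8 and 34.5 FPKM at ZT0.5. The groups were well apart, with a log2 difference of -0.54 (SE 0.05, adjusted p = 0.0053). In Sleepy eGFP mice limma called 0 of 10 (0.314% of all genes in either direction) and voom 3 (Hspa1b, Hsph1, Dnajb1). At an unadjusted p under 0.05 were 9 of 10, against 1696 of all 17213 genes. Hspa1b there was 0.958, 1.03, 1.09 and 1.53 FPKM at ZT12.5, against 2.02, 2.19, 1.84 and 2.44 FPKM at ZT0.5, without overlap, for a difference of -0.84 (SE 0.16, adjusted p = 0.069). In wild-type eGFP mice limma also called 0 of 10 (0.203% of all genes), and voom called 1 (Hsph1). At an unadjusted p under 0.05 were 4, against 1927 of all 17246 genes.

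The time difference itself was tested between regions over the 3 groups, in comparisons added after the data were seen. Thalamus fell further than cortex for 5 genes (5.47% of all genes had a lower difference), namely Hspe1 (-0.33, SE 0.07, adjusted p = 0.00096), Hsp90aa1 (-0.25, SE 0.03), Hspd1 (-0.21, SE 0.03), Hsph1 (-0.15, SE 0.04) and Hsp90ab1 (-0.10, SE 0.03). Thalamus fell further than hypothalamus for Hsp90aa1 (-0.31), Hspe1 (-0.27) and Hspd1 (-0.24), 3 of 10 genes against 18.3% of all. Cortex minus hypothalamus was called for Hsp90ab1 (0.10, with 5.74% of all genes higher). Without rescaling, the first of these counts was 2 instead of 5 and the last 0 instead of 1.

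The other chaperone lists are set beside the shares of all genes called lower at ZT12.5 given above and those called higher, 15.6% in cortex, 28.2% in thalamus and 4.42% in hypothalamus. Of 14 chaperones of the endoplasmic reticulum, cortex had 12, thalamus 13 and hypothalamus 7 called lower, with 0 called higher. Hsp90b1, the Hsp90 of that compartment, fell by 0.41, 0.59 and 0.21 on the log2 scale in the same order. Hspa5, its Hsp70, averaged 23.8 ± 2.78 FPKM at ZT12.5 and 40.9 ± 4.28 FPKM at ZT0.5 in thalamus, a log2 difference of -0.73. Of 27 co-chaperones and regulators of Hsp70 and Hsp90, 15, 17 and 13 were lower in the same order and 2, 5 and 0 higher. Chordc1, an Hsp90 co-chaperone, differed by -0.51, -0.71 and -0.41, and the ubiquitin ligase gene Stub1 was higher in thalamus (0.30). Of the 8 subunits of the cytosolic chaperonin TRiC, 6, 7 and 4 were lower. Of 12 mitochondrial chaperones and proteases other than Hspd1 and Hspe1, 1, 3 and 0 were lower and 1, 3 and 0 higher. Of 4 tested small heat shock genes of 7, Hspb1 not among them, 1, 1 and 1 were lower and 1, 1 and 0 higher. The cold-inducible RNA-binding genes Cirbp and Rbm3 were both higher at ZT12.5 in every region, Cirbp by 0.54, 0.64 and 0.47 and Rbm3 by 0.53, 0.58 and 0.70.

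Markers of blood vessels moved with time as well: 6, 7 and 5 of 9 endothelial and mural genes were lower at ZT12.5 in cortex, thalamus and hypothalamus, with medians of -0.25, -0.36 and -0.26. Their summed level was 36.7 to 52.5 FPKM at ZT12.5 and 50.5 to 73 FPKM at ZT0.5 in thalamus. It was 25.4 to 36 FPKM at ZT12.5 and 37 to 51.6 FPKM at ZT0.5 in cortex, and 27.3 to 45.8 FPKM at ZT12.5 and 38.4 to 61.9 FPKM at ZT0.5 in hypothalamus. None of the 9 was at 0. Of 5 blood genes, 3 were higher in cortex and in thalamus and 0 in hypothalamus. Choroid plexus and ependyma sums in thalamus were 12.3 to 1650 FPKM at ZT12.5 and 14.2 to 1280 FPKM at ZT0.5. In its Sleepy HDAC4CA group they were 12.3 to 18.9 FPKM at ZT12.5 and 309, 1030, 742 and 14.2 FPKM at ZT0.5. Oligodendrocyte sums in Sleepy eGFP thalamus were 536 to 677 FPKM at ZT12.5 and 785 to 846 FPKM at ZT0.5. Neuron sums there were 288 to 312 FPKM and 315 to 329 FPKM in the same order. In wild-type eGFP and Sleepy HDAC4CA thalamus the sums of both lists overlapped between the times. The part of all these marker lists in the chaperone differences was not tested. The labels name no day of extraction or sequencing, so time of day and the day of handling cannot be told apart.

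HDAC4CA was compared with eGFP in Sleepy mice and with mCherry in wild-type mice. By limma after rescaling, HDAC4CA went in Sleepy cortex with more Hsph1, Hspa8 and Hsp90ab1 at both times, and in Sleepy thalamus with more Hspa8, Hsp90ab1 and Hspd1. Hsph1 went the other way in thalamus at ZT12.5, where the small heat shock gene Hspb1 was also lower. In hypothalamus no member was called.

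In Sleepy cortex at ZT12.5, 4 of 10 genes were called higher (5.83% of all genes). Hsph1 was 21.1, 19.9, 16.8 and 18.8 FPKM with HDAC4CA, against 13.8, 14.7, 15.3 and 14.3 FPKM with eGFP. All HDAC4CA libraries lay above all eGFP libraries, with a log2 difference of 0.39 (SE 0.06, adjusted p = 0.0024). Hspa8 was 125, 116, 109 and 119 FPKM with HDAC4CA, against 100, 103, 102 and 104 FPKM with eGFP. Hsp90ab1 was 219, 200, 193 and 212 FPKM with HDAC4CA, against 174, 180, 172 and 181 FPKM with eGFP. Neither gene's groups overlapped, and the differences were 0.19 for Hspa8 (SE 0.03, adjusted p = 0.0048) and 0.22 for Hsp90ab1 (SE 0.03, adjusted p = 0.0012). These 3 calls held without any 1 library. Hspa1b was 2.37, 2.64, 2.47 and 3.15 FPKM with HDAC4CA, against 1.4, 1.88, 1.57 and 2.32 FPKM with eGFP, for a difference of 0.55 (SE 0.14, adjusted p = 0.033). Its call was kept in 2 of 8 fits, those without HDAC4CA replicate 1 or eGFP replicate 4, and the difference ran from 0.46 to 0.68 over the 8, with adjusted p up to 0.089. Dnajb1 averaged 4.67 ± 0.962 FPKM with HDAC4CA and 5.94 ± 0.441 FPKM with eGFP, a difference of -0.36 (SE 0.11, adjusted p = 0.055), and was called by voom.

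In Sleepy cortex at ZT0.5, 4 of 10 genes were again called higher (2.54% of all genes). Hsph1 was 26.3, 26.3, 26.5 and 23.5 FPKM with HDAC4CA, against 19.3, 20.7, 16.9 and 20.3 FPKM with eGFP. The groups were apart, with a log2 difference of 0.42 (SE 0.05, adjusted p = 0.003), and no single library decided it. Hspa8 (0.20, SE 0.04, adjusted p = 0.023), Hsp90aa1 (0.19, SE 0.04, adjusted p = 0.025) and Hsp90ab1 (0.17, SE 0.04, adjusted p = 0.04997) were called by less. Hspa8 lost its call without any 1 of HDAC4CA or eGFP replicates 2 or 3 (0.19 to 0.22, adjusted p up to 0.068). Hsp90aa1 kept it without HDAC4CA replicate 1 or 4 alone (0.18 to 0.21, adjusted p up to 0.068), and Hsp90ab1 without HDAC4CA replicate 1 alone (0.15 to 0.19, adjusted p up to 0.13). Without rescaling, 1 gene was called here, and 1 with a replicate block. Of 6 neuron markers, 2 were higher and 0 lower with HDAC4CA in Sleepy cortex at each time, with sums of 412 to 433 FPKM with HDAC4CA and 361 to 428 FPKM with eGFP at ZT0.5 and of 348 to 413 FPKM with HDAC4CA and 353 to 393 FPKM with eGFP at ZT12.5. Of 5 blood genes, 4 were lower at ZT0.5, with sums of 33.7 to 49.9 FPKM with HDAC4CA and 61.4 to 97.1 FPKM with eGFP, and none was at 0. Oligodendrocyte markers were lower at ZT0.5 in 2 of 7 cases, with sums of 170 to 191 FPKM with HDAC4CA and 204 to 235 FPKM with eGFP. At ZT12.5 astrocyte markers were higher in 2 of 6 cases and lower in 1, with sums of 156 to 199 FPKM with HDAC4CA and 140 to 154 FPKM with eGFP. Their part in the chaperone differences was not tested.

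**Figure D3:**
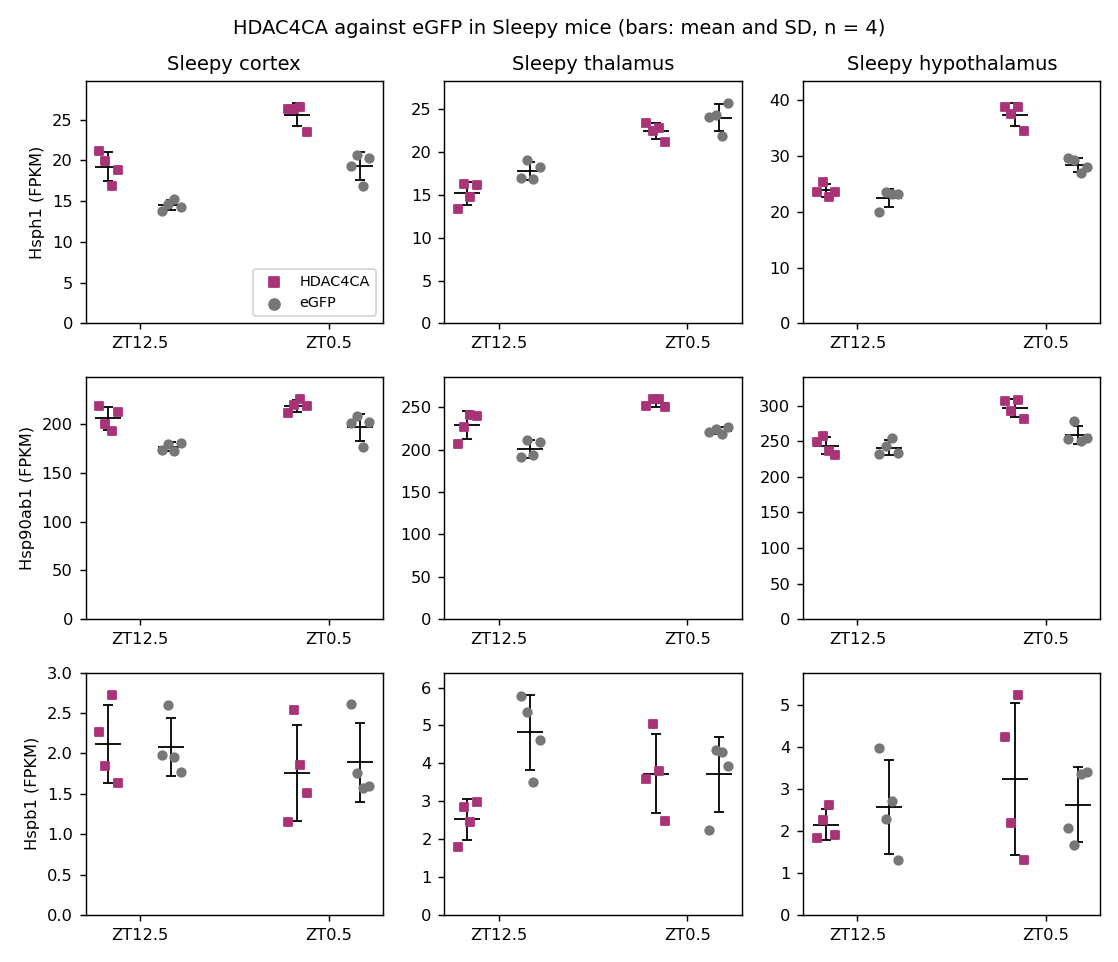
Level in FPKM of Hsph1, Hsp90ab1 and Hspb1 in each Sleepy library with HDAC4CA (squares) and eGFP (circles), by region and time, with bars for the mean and SD of 4 libraries. In cortex at ZT12.5 the HDAC4CA libraries of Hsph1 lie at 16.8 to 21.1 FPKM and the eGFP libraries at 13.8 to 15.3 FPKM, while in thalamus the HDAC4CA libraries lie at 13.4 to 16.3 FPKM and the eGFP libraries at 16.9 to 19.1 FPKM.

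In Sleepy thalamus at ZT12.5, 3 genes were called higher (6.63% of all genes) and 2 lower (5.3%). Without rescaling 1 of these 5 calls was made (Hspb1), and with a replicate block 3 (Hsph1, Hspa8 and Hspb1). Hsph1 was 13.4, 16.3, 14.8 and 16.2 FPKM with HDAC4CA, against 17, 19.1, 16.9 and 18.3 FPKM with eGFP. Here the HDAC4CA libraries were the lower ones, without overlap, and the log2 difference was -0.20 (SE 0.04, adjusted p = 0.015). Hspa8 was 133, 153, 150 and 164 FPKM with HDAC4CA, against 128, 142, 132 and 139 FPKM with eGFP. Hsp90ab1 was 207, 226, 241 and 240 FPKM with HDAC4CA, against 191, 211, 193 and 209 FPKM with eGFP. Both overlapped in the deposited values, through HDAC4CA replicate 1, and the differences after rescaling were 0.18 for Hspa8 (SE 0.04, adjusted p = 0.01) and 0.22 for Hsp90ab1 (SE 0.04, adjusted p = 0.012). Hspd1 was higher by 0.19 (SE 0.05, adjusted p = 0.027), a call lost without any 1 of HDAC4CA or eGFP replicates 1, 3 or 4 (0.16 to 0.21, adjusted p up to 0.082).

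Hspb1 was 1.79, 2.84, 2.46 and 2.98 FPKM with HDAC4CA, against 5.79, 5.36, 3.51 and 4.62 FPKM with eGFP in the same thalamus samples. The groups did not overlap, with a log2 difference of -0.88 (SE 0.16, adjusted p = 0.0069), from -1.02 to -0.77 with 1 library left out. Choroid plexus and ependyma markers moved with it: their summed level was 12.3, 15, 15.2 and 18.9 FPKM with HDAC4CA and 983, 573, 808 and 1650 FPKM with eGFP, 6 of 9 were called lower with a median of -4.14, and none was at 0. Blood genes were lower in 5 of 5 cases, with sums of 43.2 to 97.1 FPKM with HDAC4CA and 95.5 to 193 FPKM with eGFP. Their part in the differences of Hspb1, Hsph1 and the other called genes of these samples was not tested. In other Sleepy thalamus groups these sums varied within a group. With CREB they were 24.9, 317, 866 and 1040 FPKM beside Hspb1 levels of 4.88, 4.63, 6.59 and 4.32 FPKM. With HDAC4CA at ZT0.5 they were 309, 1030, 742 and 14.2 FPKM beside Hspb1 levels of 3.59, 5.05, 3.8 and 2.48 FPKM. With eGFP at ZT0.5 they were 16.8, 27.1, 1100 and 1280 FPKM beside Hspb1 levels of 2.24, 4.34, 4.31 and 3.94 FPKM. The library lowest in the marker sum was also lowest in Hspb1 in these last 2 groups and not in the CREB group. Hspb8, another small heat shock gene, was lower by -0.86 (2 ± 0.119 FPKM with HDAC4CA, 3.92 ± 1.21 FPKM with eGFP).

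At ZT0.5 in Sleepy thalamus, HDAC4CA libraries were higher in 4 of 10 genes (5.26% of all genes were called higher) and lower in 0. Hsp90aa1 was 160, 160, 149 and 150 FPKM with HDAC4CA, against 130, 123, 129 and 131 FPKM with eGFP. Hspd1 was 35.2, 36.7, 35.7 and 36.6 FPKM with HDAC4CA, against 30.6, 28.7, 31.5 and 30.3 FPKM with eGFP. Both were separate between the groups, with differences of 0.35 for Hsp90aa1 (SE 0.04, adjusted p = 0.00064) and 0.33 for Hspd1 (SE 0.04, adjusted p = 0.0014). Hsp90ab1 was 251, 259, 259 and 250 FPKM with HDAC4CA, against 221, 224, 218 and 227 FPKM with eGFP, a difference of 0.27 (SE 0.04, adjusted p = 0.004). Hspa8 was 182, 193, 183 and 177 FPKM with HDAC4CA, against 163, 159, 156 and 172 FPKM with eGFP, a difference of 0.26 (SE 0.05, adjusted p = 0.011). All 4 calls held without any 1 library. Hsph1 averaged 22.4 ± 0.938 FPKM with HDAC4CA and 24 ± 1.6 FPKM with eGFP, a difference of -0.02 (SE 0.06, adjusted p = 0.91). Of 6 neuron markers 3 were higher and 0 lower in this comparison, with sums of 347 to 374 FPKM with HDAC4CA and 315 to 329 FPKM with eGFP, and 2 of 5 blood genes were lower, with sums of 33.5 to 62.1 FPKM with HDAC4CA and 74.1 to 139 FPKM with eGFP. Oligodendrocyte markers were lower in 2 of 7 cases, with sums of 572 to 721 FPKM with HDAC4CA and 785 to 846 FPKM with eGFP, and astrocyte markers lower in 2 of 6 and higher in 1, with sums of 216 to 230 FPKM with HDAC4CA and 232 to 253 FPKM with eGFP. The part of these lists in the result was not tested.

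The HDAC4CA effect on Hsph1 differed between the regions in a test of the difference, added after the data were seen. Cortex minus thalamus was 0.58 at ZT12.5 (SE 0.08, adjusted p = 0.0002) and 0.42 at ZT0.5 (SE 0.08, adjusted p = 0.0063). Hspb1 differed by 0.88 at ZT12.5 (SE 0.26, adjusted p = 0.044), a call lost without rescaling (adjusted p = 0.052), with a replicate block (0.063) and with no filter on low values (0.1). These were 2 of 10 genes at ZT12.5 (4.12% of all genes had a higher difference) and 1 of 10 at ZT0.5 (1.47%). Choroid plexus and ependyma sums in thalamus at ZT12.5 were 12.3 to 18.9 FPKM with HDAC4CA and 573 to 1650 FPKM with eGFP. At ZT0.5 they were 14.2 to 1030 and 16.8 to 1280 FPKM in the same order. In cortex at ZT12.5 they were 1.74 to 38.4 and 1.44 to 53.6 FPKM. Their part in the differences between regions was not tested. The HDAC4CA effect did not pass the test of a change with time in cortex, thalamus or hypothalamus for any of the 10 genes (0% of all genes in each region by limma, and 0 members by voom). At an unadjusted p under 0.05 there were 1, 6 and 1 members in these regions, against 1198 of 16137, 1315 of 16798 and 795 of 17209 genes. In thalamus the Hsp90aa1 difference was -0.22 (SE 0.05, adjusted p = 0.47).

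In hypothalamus 0 of 10 genes were called with HDAC4CA in Sleepy mice at ZT12.5 (0.0693% of all genes in either direction) or at ZT0.5 (0.0176%), or in wild-type mice (0.152%). At an unadjusted p under 0.05 there were 3, 4 and 0 members, against 1654 of 17314, 1405 of 17086 and 1783 of 16418 genes. Calls by voom were 0, 1 and 0. The one called by voom was Hsph1 at ZT0.5, with 38.8, 37.5, 38.8 and 34.5 FPKM with HDAC4CA, against 29.6, 29.2, 26.9 and 28 FPKM with eGFP. The groups did not overlap, and the limma difference was 0.33 (SE 0.05, adjusted p = 0.2).

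In wild-type cortex HDAC4CA against mCherry gave 1 gene, Hsp90ab1 (3.24% of all genes were called higher). It was 271, 266, 261 and 326 RPKM with HDAC4CA, against 227, 256, 253 and 268 RPKM with mCherry, overlapping in the deposited values, and its log2 difference after rescaling was 0.22 (SE 0.04, adjusted p = 0.019). The call was lost without mCherry replicate 1 or 3 (0.20 to 0.26, adjusted p up to 0.065). Replicate 4 is of the other library kind. Hsph1 was 22.6, 25.3, 26.1 and 38.7 RPKM with HDAC4CA, against 18.6, 23.8, 21.9 and 26.3 RPKM with mCherry. With CREB it was 21.2, 22.2, 19.9 and 22.7 RPKM. HDAC4CA minus mCherry was 0.36 (SE 0.12, adjusted p = 0.12), and the part of library kind in the Hsph1 levels was not tested. Of 6 neuron markers 2 were higher here and 0 lower, with sums of 502 to 623 RPKM with HDAC4CA and 497 to 620 RPKM with mCherry. Without replicate 4 of both groups 0 members were called, with a term for library kind 4, and with replicate number as a block 2, Hsph1 (adjusted p = 0.031) and Hsp90ab1 (adjusted p = 0.038). In wild-type thalamus 0 of 10 were called by limma (7.23% of all genes in either direction), and voom called Hspa8 and Hsp90ab1. At an unadjusted p under 0.05 were 4 of 10, against 3677 of all 16766 genes. Hspa8 averaged 41.7 ± 2.55 RPKM with HDAC4CA and 38.7 ± 1.85 RPKM with mCherry, a difference of 0.18 (SE 0.05, adjusted p = 0.066). Hsph1 averaged 24.3 ± 1.78 RPKM with HDAC4CA and 29.8 ± 2.67 RPKM with mCherry, a difference of -0.23 (SE 0.08, adjusted p = 0.11). Hsp90ab1 differed by 0.15 (SE 0.04, adjusted p = 0.067). The Sleepy and wild-type effects were measured in different units against different vectors and were not tested against each other.

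Among the other chaperone genes, the Hsp110 gene Hspa4l was higher with HDAC4CA in all thalamus comparisons, by 0.44 in wild-type mice, 0.53 in Sleepy mice at ZT12.5 and 0.60 at ZT0.5. In Sleepy thalamus at ZT0.5 it was 28.8 ± 0.601 FPKM with HDAC4CA and 20.1 ± 1.02 FPKM with eGFP. Of 27 co-chaperones and regulators, 3 were higher in wild-type thalamus (4.23% of all genes), 8 in Sleepy thalamus at ZT12.5 (6.63%) and 7 at ZT0.5 (5.26%), and 0 were lower. Stip1, which links Hsp70 to Hsp90, rose by 0.29 and 0.36 in Sleepy thalamus at ZT12.5 and ZT0.5. In Sleepy cortex 1 was higher (Ptges3, 0.19) and 1 lower (Hspa2, -0.52) at ZT12.5. Mitochondrial Hsp70, Hspa9, was higher by 0.24 in Sleepy thalamus at ZT0.5. Cirbp was lower with HDAC4CA at ZT0.5 in Sleepy cortex (-0.49) and thalamus (-0.46), as was Rbm3 in thalamus (-0.60).

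CREB in Sleepy thalamus went with more of the inducible Hsp70 pair and of Dnajb1, and with no call in the constitutive or mitochondrial members. This was 3 of 10 genes called higher (2.95% of all genes). Hspa1a was 2.51, 3.54, 3.32 and 3.45 FPKM with CREB, against 0.946, 1.08, 1.54 and 1.86 FPKM with eGFP. Hspa1b was 2, 3.16, 3.46 and 3.25 FPKM with CREB, against 0.692, 0.931, 1.12 and 1.41 FPKM with eGFP. Every CREB library lay above every eGFP library for both genes, CREB replicate 1 being the lowest of its group. The log2 differences were 1.14 for Hspa1a (SE 0.18, adjusted p = 0.011) and 1.37 for Hspa1b (SE 0.20, adjusted p = 0.007), or 2.21-fold and 2.58-fold, and both held without any 1 library. Dnajb1 was 8.24, 10, 9.52 and 9.4 FPKM with CREB, against 6.18, 7.35, 7.35 and 7.38 FPKM with eGFP. Its groups were separate, with a difference of 0.31 (SE 0.06, adjusted p = 0.025), but the call was lost without any 1 of CREB replicates 2 or 4 or eGFP replicates 1, 2 or 4 (0.27 to 0.34, adjusted p up to 0.07). The other 7 genes differed by -0.05 to 0.01, for example Hspa8 with 139 ± 12 FPKM with CREB and 135 ± 6.38 FPKM with eGFP (-0.04, SE 0.05).

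**Figure D4:**
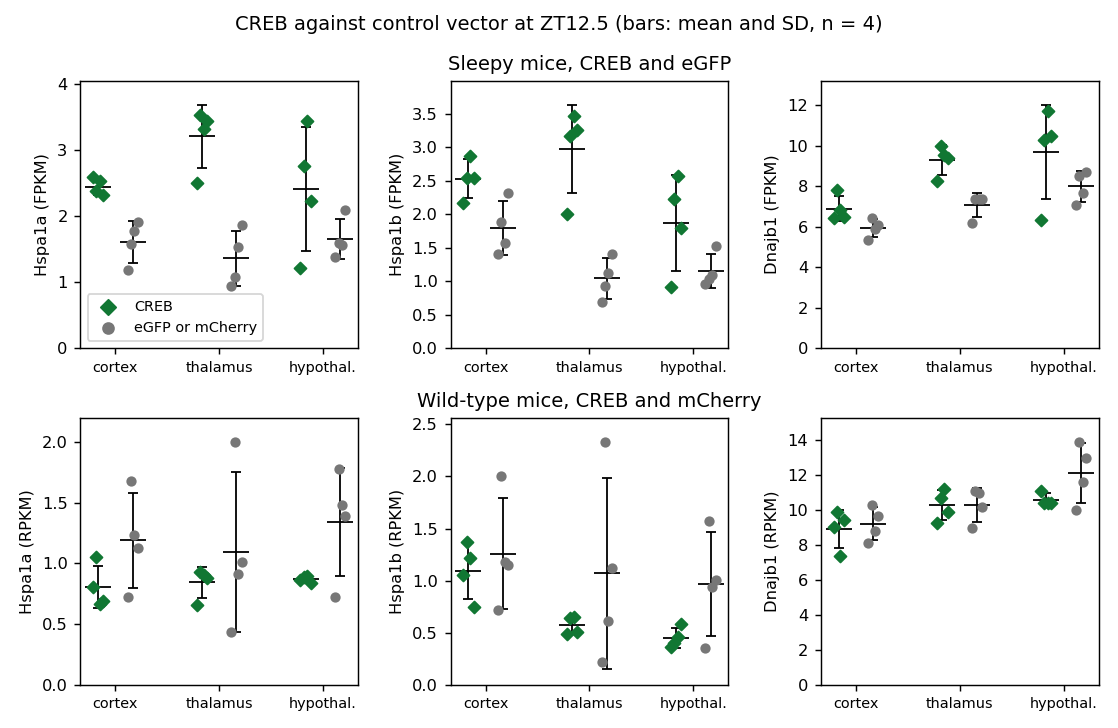
Level of Hspa1a, Hspa1b and Dnajb1 in each library at ZT12.5 with CREB (diamonds) and the control vector (circles), by region, for Sleepy mice in FPKM (top row) and wild-type mice in RPKM (bottom row), with bars for the mean and SD of 4 libraries. In Sleepy thalamus the CREB libraries of Hspa1a lie at 2.51 to 3.54 FPKM and the eGFP libraries at 0.946 to 1.86 FPKM, and in Sleepy hypothalamus the groups overlap.

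In Sleepy cortex limma called 0 of 10 with CREB (0.0674% of all genes in either direction), and voom 0. At an unadjusted p under 0.05 were 2, against 1548 of all 16315 genes. Hspa1a was 2.59, 2.38, 2.54 and 2.32 FPKM with CREB, against 1.19, 1.58, 1.77 and 1.92 FPKM with eGFP, without overlap, and the difference was 0.52 (SE 0.13, adjusted p = 0.22). In Sleepy hypothalamus 0 of 10 were called as well (0.00575% of all genes), and 0 by voom. At an unadjusted p under 0.05 was 1, against 998 of all 17379 genes. Hspa1a there was 1.21, 2.76, 3.44 and 2.23 FPKM with CREB, against 1.38, 1.59, 1.57 and 2.09 FPKM with eGFP. CREB replicate 1 was the lowest of all 8 libraries and the other 3 were the highest, for a difference of 0.43 (SE 0.23, adjusted p = 0.86). The difference of the CREB effect between regions was tested as well. Thalamus minus cortex gave 0 of 10 (0.209% of all genes in either direction) and 0 by voom, with 0.61 for Hspa1a and 0.94 for Hspa1b. At an unadjusted p under 0.05 were 2 members, against 1496 of all 16749 genes. With a replicate block Hspa1b was called (adjusted p = 0.035). Thalamus minus hypothalamus gave 0 of 10 (0.226%) and 0 by voom, with 0.71 for Hspa1a and 0.79 for Hspa1b. Here 2 members were at an unadjusted p under 0.05, against 1602 of all 17263 genes.

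In wild-type mice, CREB against mCherry gave 0 of 10 in cortex (0.0622% of all genes in either direction), thalamus (3.41%) and hypothalamus (0%), and 0 by voom in each. At an unadjusted p under 0.05 were 0, 0 and 1 members, against 1201 of 16065, 2880 of 16875 and 650 of 16541 genes. Hspa1a was 0.659, 0.926, 0.905 and 0.88 RPKM with CREB, against 0.434, 2, 0.912 and 1.01 RPKM with mCherry in thalamus, a difference of -0.16 (SE 0.36, adjusted p = 0.89). The mCherry libraries spread more than the CREB libraries and enclosed them. Replicate 2 was the highest mCherry library of Hspa1a in every region, at 1.68 RPKM in cortex, 2 RPKM in thalamus and 1.78 RPKM in hypothalamus, and replicate 1 the lowest, at 0.721, 0.434 and 0.721 RPKM in the same order. Hspa1b followed it, with 2.33 RPKM in replicate 2 and 0.215 RPKM in replicate 1 of mCherry thalamus. In wild-type cortex the SE of Hspa8 (0.55) and Hsp90aa1 (0.56) was several times that of Hsph1 (0.06), and replicate 4 of each group is low in both. Without replicate 4 of both groups 0 members were called as well, with an SE of 0.05 for Hspa8 and 0.04 for Hsp90aa1 and differences of -0.43 (adjusted p = 0.67) for Hspa1a and 0.48 (adjusted p = 0.66) for Hspb1, and with a term for library kind it was again 0.

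In Sleepy thalamus with CREB, other chaperone genes called higher were Hspa2 (0.39), a testis-enriched Hsp70 also made in brain, the heat shock factor gene Hsf2 (0.41), the ER genes Hyou1 (0.35) and Dnajb9 (0.26), the TRiC subunit gene Cct2 (0.22) and Rbm3 (0.37). Hsf2 averaged 3.63 ± 0.205 FPKM with CREB and 2.56 ± 0.188 FPKM with eGFP. By list these were 2 of 27 co-chaperones and regulators, 2 of 14 ER chaperones and 1 of 8 TRiC subunits, with 0 called lower in these 3 lists. The median of the co-chaperone list was 0.02, against 0.00 for all genes. Blood genes summed to 78.7 to 102 FPKM with CREB and 95.5 to 193 FPKM with eGFP, and 0 of 5 were called. Astrocyte markers summed to 256 to 272 FPKM with CREB and 214 to 232 FPKM with eGFP, with 1 of 6 called higher, and oligodendrocyte markers to 698 to 748 FPKM with CREB and 536 to 677 FPKM with eGFP, with 0 of 7 called. Neither pair of sums overlapped. Choroid plexus and ependyma markers summed to 24.9, 317, 866 and 1040 FPKM with CREB and 983, 573, 808 and 1650 FPKM with eGFP. CREB replicate 1 was lowest of its group in this sum and in Hspa1a, Hspa1b and Dnajb1. With eGFP, replicate 2 was lowest in the sum and replicate 1 in these genes. None of the markers was at 0, and the part of these lists in the Hsp70 and Dnajb1 differences was not tested.

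Genotype was compared in eGFP mice, Sleepy against wild type. None of the 10 genes was called by limma or by voom in any region, at either time or with both times together. The shares of all genes called were 0% in cortex at ZT12.5 and at ZT0.5 and 0.00618% for both times, 0%, 0.0359% and 0% in thalamus, and 0%, 0% and 0.0406% in hypothalamus. At an unadjusted p under 0.05 there were 1, 0 and 2 members in cortex, 0, 2 and 1 in thalamus, and 0, 3 and 1 in hypothalamus, in the same order. All genes at that threshold were 1071 of 16433, 966 of 15960 and 1000 of 16187 in cortex. They were 1335 of 16933, 1057 of 16691 and 1046 of 16820 in thalamus, and 1451 of 17323, 759 of 17140 and 1271 of 17233 in hypothalamus. With both times together, the largest difference among the 7 genes with higher levels (all but Hspa1a, Hspa1b and Hspb1) was 0.07 for cortex, 0.06 for thalamus and 0.11 for hypothalamus, with SE up to 0.07. Hsph1 in hypothalamus averaged 25.5 ± 3.46 FPKM in Sleepy and 27.6 ± 3.69 FPKM in wild-type mice (SD, n = 8 each), a difference of -0.11 (SE 0.04, adjusted p = 0.56).

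The low-expressed Hsp70 pair varied more. At ZT0.5 in hypothalamus, Hspa1b was 2.02, 2.19, 1.84 and 2.44 FPKM in Sleepy mice, against 1.63, 1.41, 1.35 and 0.717 FPKM in wild-type mice. The groups did not overlap, but the difference of 0.74 (SE 0.23) had an adjusted p of 1. In thalamus at ZT0.5, Hspa1a was 1.6, 1.97, 1.63 and 1.67 FPKM in Sleepy mice, against 1.63, 1.01, 0.816 and 0.864 FPKM in wild-type mice, which overlapped through wild-type replicate 1 (0.70, SE 0.22, adjusted p = 0.58). The genotype effect did not pass the test of a change with time for any of the 10 in cortex, thalamus or hypothalamus (0% of all genes in each), and 0 were called by voom. At an unadjusted p under 0.05 were 1, 3 and 3 members, against 1068 of 16187, 1242 of 16820 and 879 of 17233 genes. In thalamus Hspa1b moved in opposite directions with time by its means, 0.71 in wild-type (SE 0.32, adjusted p = 0.13) and -0.38 in Sleepy eGFP mice (SE 0.20, adjusted p = 0.19), neither called, and the difference between them was -1.09 (SE 0.40, adjusted p = 0.62).

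**Figure D5:**
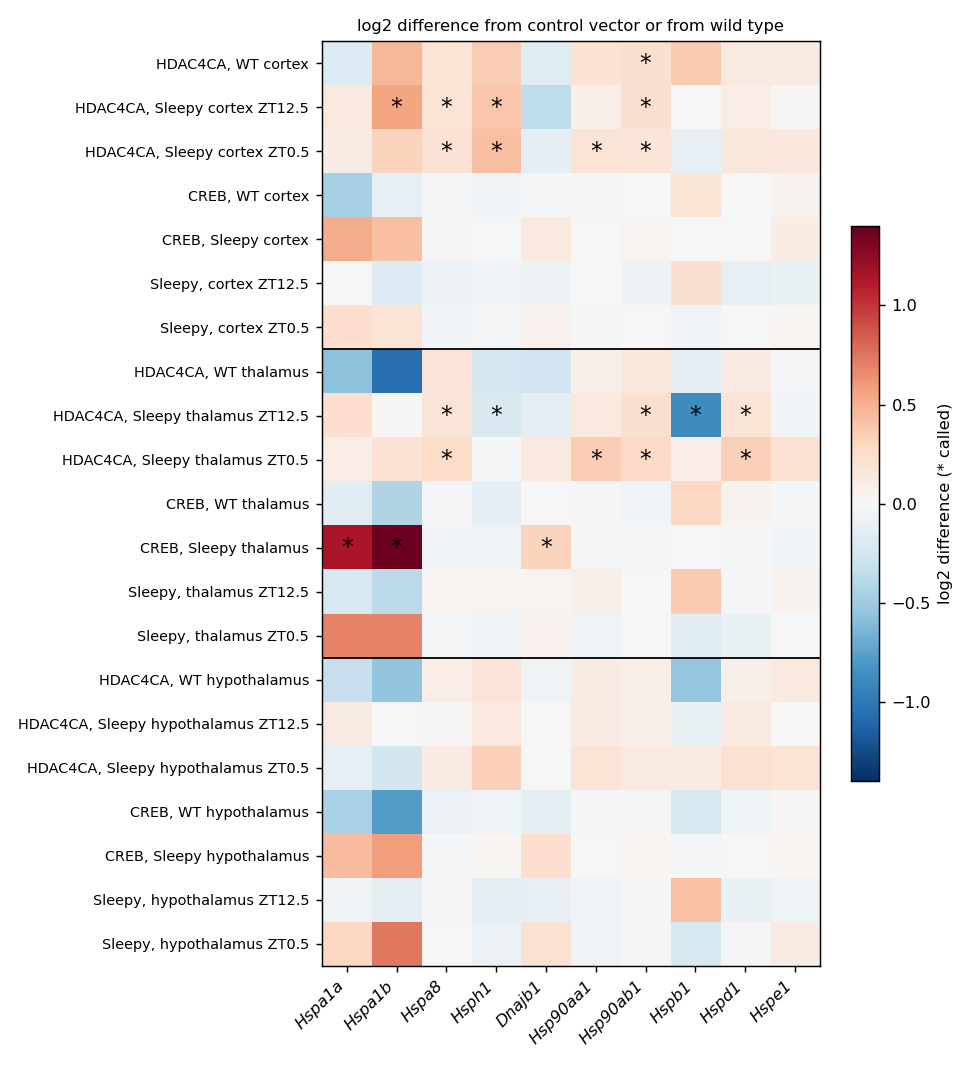
Log2 difference of each of the 10 chaperone genes (columns) for HDAC4CA or CREB minus the control vector and for Sleepy minus wild type (rows, by region), as colour, with asterisks at an adjusted p under 0.05. The genotype and hypothalamus rows hold no asterisk, and Hspa1b with CREB in Sleepy thalamus (1.37) is the highest marked value.

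Across the 21 FPKM groups, after taking out each region's mean, the group means of Hspa8, both Hsp90 genes, Hsph1 and the mitochondrial pair were correlated with each other, and those of the inducible Hsp70 pair with each other. Pearson's r between group means was 0.97 for Hsp90aa1 and Hspd1, 0.94 for Hspa8 and Hspd1, 0.93 for Hspa8 and Hsp90aa1, 0.90 for Hspd1 and Hspe1, and 0.82 for Hsph1 and Hspa8. For Hsp90ab1 it was 0.86 with Hspa8, 0.81 with Hspd1, 0.78 with Hsp90aa1, 0.65 with Hspe1 and 0.61 with Hsph1. It was 0.90 for Hspa1a and Hspa1b, whose reads may have been split between them, and 0.58 for each of these with Dnajb1. Hspa1a with Hspa8 gave -0.11, and Hspb1 with Hspd1 gave -0.28. The groups share control groups, and the labels do not say whether regions come from the same mice, so these values are a description. Of 12089 genes with on average 2 or more recovered reads per 1 M, those most like Hspa8 were Ubxn2b (0.96), Hspa4 (0.96) and Dnaja1 (0.95), and those most like Hspd1 were Dnaja1 (0.97), Sbno1 (0.96) and Tubgcp5 (0.96). Most like Hsph1 were Bdp1 (0.93), Cd93 (0.91) and Slc5a3 (0.91). Hspa4 is an Hsp110 gene and Dnaja1 a J-domain gene.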

How the data were processed

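Polyadenylated RNA was prepared with the TIANGEN RNAprep Pure Tissue Kit and libraries with the NEBNext Ultra II DNA kit, per the labels' protocols. CASAVA 1.9, STAR 2.6.1a, featureCounts and edgeR 3.28.1 with the GRCm38 build are named, per the submitters' processing notes, without role or order. The authors deposited RPKM values for 36 libraries and FPKM values for 84, with 49585 rows each. The strand setting, library batch and handling dates are not given in the sources used here. From the rows, 26 symbols that a spreadsheet had turned into dates and 93 repeats were left out.

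Values times exon length (GENCODE, known for 95.2% of genes) fell on whole multiples of 1 read for 94.3 to 95.7% of low values (up to 20 reads, within 0.1), which gave each library's depth and reads. Values were rescaled by the trimmed mean of M values (trims of 0.3 and 0.05) and tested as log2(value + 0.1) with limma 3.58.1 (trend, robust) in R 4.3.3. Genes needed a mean of 10 recovered reads, or a value of 1 where no exon length was known, and p-values were adjusted over all genes of a comparison by the Benjamini-Hochberg method, called under 0.05. Only the groups compared entered a fit, with time or group as a stratum in pooled comparisons. The fit was tested on simulated data. Alternatives were no rescaling, a pseudocount of 1, no filter, voom on recovered reads, a replicate block and leaving out each library. Library kind (mean log2 ribosomal level above or below 2.5) was an added term or exclusion in wild-type cortex.

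Same-numbered libraries deviated together at r above 0.1 for all 4 numbers in wild-type cortex with HDAC4CA (0.13 to 0.65) and CREB (0.13 to 0.71), where replicate 4 is of the other library kind, and in none of the other comparisons of 2 groups within a region (30 in all). Between regions, none of 30 pairs of one group in 2 regions had all 4 above 0.1 (-0.13 to 0.32), a check added after the data were seen. Named genes are the 10 members, up to 4 called genes per other list by adjusted p, and the 3 genes most correlated with Hspa8, Hsph1 and Hspd1. The members, lists and tests were chosen with earlier results of these data known.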

Additional observations from a re-analysis of the deposited data

Results flagged for a closer look

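In 25 of 300 sets of 4 libraries (a gene in a group), 1 library stood far from the other 3, farther off than Dixon's test at the 95% level allows. Chance flags about 1 in 20 such sets. In thalamus, Hspa1a was 1.49 FPKM in replicate 1 of Sleepy HDAC4CA mice at ZT0.5, against 1.79 to 1.84 FPKM in the others, 0.659 RPKM in replicate 1 of wild-type CREB mice, against 0.88 to 0.926 RPKM, and 2.87 FPKM in replicate 4 of wild-type eGFP mice at ZT12.5, against 1.16 to 1.43 FPKM. Hspa1b was 2.66 FPKM in replicate 3 of Sleepy HDAC4CA hypothalamus at ZT0.5, against 1.58 to 1.66 FPKM, and 0.769 FPKM in replicate 1 of Sleepy HDAC4CA thalamus at ZT12.5, against 1.06 to 1.11 FPKM. Hsph1 was 23.5 FPKM in replicate 4 of Sleepy HDAC4CA cortex at ZT0.5, against 26.3 to 26.5 FPKM, and 20 FPKM in replicate 1 of Sleepy eGFP hypothalamus at ZT12.5, against 23.2 to 23.5 FPKM. Dnajb1 was 7.46 FPKM in replicate 4 of wild-type eGFP cortex at ZT12.5, against 5.83 to 5.98 FPKM, 11.1 RPKM in replicate 1 of wild-type CREB hypothalamus, against 10.4 RPKM in the others, and 6.18 FPKM in replicate 1 of Sleepy eGFP thalamus at ZT12.5, against 7.35 to 7.38 FPKM.

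Among the abundant genes, replicate 4 of the wild-type cortex groups, which is of the other library kind, stood out most often. There Hspa8 was 37.4 RPKM with HDAC4CA, against 85.9 to 93.6 RPKM. Hsp90aa1 was 24.9 RPKM with CREB, against 66.7 to 73 RPKM, and 31.4 RPKM with HDAC4CA, against 73 to 75 RPKM. Hsp90ab1 was 326 RPKM with HDAC4CA, against 261 to 271 RPKM, and Hspd1 was 12.2 RPKM with CREB, against 20 to 21.6 RPKM. Elsewhere Hspa8 was 194 FPKM in replicate 3 of wild-type eGFP thalamus at ZT0.5, against 159 to 164 FPKM, and Hsp90aa1 was 106 FPKM in replicate 4 of Sleepy HDAC4CA cortex at ZT0.5, against 113 to 114 FPKM. Hsp90ab1 was 278 FPKM in replicate 2 of Sleepy eGFP hypothalamus at ZT0.5, against 251 to 255 FPKM, and 263 RPKM in replicate 3 of wild-type CREB hypothalamus, against 277 to 280 RPKM. Hspd1 was 22 FPKM in replicate 1 of Sleepy HDAC4CA cortex at ZT12.5, against 19.1 to 19.3 FPKM, and 22 FPKM in replicate 1 of Sleepy CREB thalamus, against 25 to 25.3 FPKM. Hspe1 was 8.83 FPKM in replicate 1 of Sleepy HDAC4CA thalamus at ZT12.5, against 9.95 to 10.1 FPKM.

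Hspb1 was 1.43 RPKM in replicate 2 of wild-type mCherry cortex, against 0.617 to 0.719 RPKM, 0.721 RPKM in replicate 4 of wild-type HDAC4CA hypothalamus, against 0.296 to 0.313 RPKM, and 2.22 FPKM in replicate 4 of wild-type eGFP hypothalamus at ZT12.5, against 1.64 to 1.72 FPKM.

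Effects that differed between regions, each by an adjusted p under 0.05 of the difference in limma, were these. The time effect in thalamus minus cortex was -0.25 for Hsp90aa1, -0.10 for Hsp90ab1, -0.21 for Hspd1, -0.33 for Hspe1 and -0.15 for Hsph1. In thalamus minus hypothalamus it was -0.31 for Hsp90aa1, -0.24 for Hspd1 and -0.27 for Hspe1, and in cortex minus hypothalamus 0.10 for Hsp90ab1. The HDAC4CA effect in Sleepy cortex minus Sleepy thalamus was 0.88 for Hspb1 and 0.58 for Hsph1 at ZT12.5 and 0.42 for Hsph1 at ZT0.5.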

How the results depend on the processing

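Of 98 pairs of a chaperone gene and a comparison with a call, the call was kept in 98 with voom, 96 with a pseudocount of 1, 84 with no filter on low values, 82 with the replicate block and 77 without rescaling. For the 50 of these pairs from comparisons of 2 groups, the call was kept in 317 of 400 fits that left out 1 library, and the pooled, region and difference calls were not refitted in this way. Without rescaling, 1 of the 98 reversed, Hsp90ab1 in cortex minus thalamus, to -0.18, and Hspb1 in cortex minus hypothalamus, not called after rescaling, was called at -0.30. Called members without rescaling were 0 instead of 1 for HDAC4CA in wild-type cortex, 1 instead of 4 in Sleepy cortex at ZT0.5, 2 instead of 0 in wild-type thalamus and 1 instead of 5 in Sleepy thalamus at ZT12.5. They were 7 instead of 4 for time in cortex of 3 groups and 6 instead of 1 for time in Sleepy HDAC4CA hypothalamus. They were 2 instead of 5 for time in thalamus minus cortex, 0 instead of 1 for time in cortex minus hypothalamus and 1 instead of 2 for HDAC4CA in cortex minus thalamus at ZT12.5. All genes called higher and lower at ZT12.5 were then 897 and 4106 in cortex, 3471 and 4707 in thalamus and 222 and 439 in hypothalamus, instead of 2529 and 2195, 4743 and 4079, and 761 and 652.

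With the replicate block, counts were 2 instead of 1 for HDAC4CA in wild-type cortex, 1 instead of 4 in Sleepy cortex at ZT0.5, 1 instead of 0 in wild-type thalamus, 3 instead of 5 in Sleepy thalamus at ZT12.5 and 1 instead of 2 for its cortex minus thalamus difference at ZT12.5. They were 0 instead of 2 for time in wild-type cortex and 1 instead of 0 for CREB in thalamus minus cortex (Hspa1b). In 1 of 30 comparisons within a region, Sleepy against wild-type hypothalamus at ZT12.5, every library correlated best with its own number (0.05 to 0.14), and so it was in 4 of 30 pairs of regions of 1 group, a hint from the data only. With no filter, counts were 0 instead of 2 for time in wild-type cortex, 2 instead of 4 in Sleepy eGFP cortex and 1 instead of 2 for HDAC4CA in cortex minus thalamus at ZT12.5. With voom they were 2 instead of 0 for HDAC4CA in wild-type thalamus, 1 instead of 0 in Sleepy hypothalamus at ZT0.5 and 2 instead of 1 in cortex minus thalamus at ZT0.5. For time they were 1, 3 and 6 in wild-type, Sleepy eGFP and Sleepy HDAC4CA hypothalamus, instead of 0, 0 and 1. A pseudocount of 1 gave 1 instead of 0 for time in Sleepy eGFP hypothalamus. In wild-type cortex with HDAC4CA, leaving out the low-kind libraries gave 0 instead of 1, and a term for library kind 4.

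Leaving out 1 library at a time gave 0 to 2 for HDAC4CA in wild-type cortex, 1 to 5 in Sleepy cortex at ZT0.5, 0 to 2 in wild-type thalamus, and for time 0 to 2 in wild-type cortex, 2 to 3 in Sleepy eGFP cortex and 0 to 1 in Sleepy eGFP hypothalamus. The causes were not tested. Hspb1, Hspa1a and Hspa1b had as few as 6, 30 and 14 reads in a library, which limits what can be seen of them.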
